A study of Mus musculus with 10 samples.

Results

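The immunity-related GTPases are a family of interferon-inducible proteins, and 7 of their genes were followed here in the glomeruli, or blood filters, of the mouse kidney. The genes were Irgm1, Irgm2, Igtp, Iigp1, Tgtp1, Tgtp2 and Ifi47, 7 of the 22053 gene identifiers in the deposited expression table. They were chosen by name from the family with their difference between the groups already known, so every comparison of their own levels below is a description and carries no test. The study compared RNA-seq libraries from glomeruli of mice carrying the p.G799R missense variant of Col4a3, a type IV collagen chain of the basement membrane in the glomerulus, with libraries from Col4a3 wild-type mice. There were 5 G799R libraries and 5 wild-type libraries. The sources used here state neither zygosity, age, sex, strain or treatment nor the method of isolating glomeruli. The series title names tauroursodeoxycholic acid, a bile acid, but no sample label gives it as a treatment. Whether each library stands for a mouse of its own is also unstated, so p-values reflect only how far these libraries scatter, possibly for technical reasons.

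Immunity-related GTPases are made by mouse cells that have sensed interferon, interferon gamma in particular. The GKS branch, which carries the usual lysine in its nucleotide-binding loop, includes Iigp1 (also called Irga6), Tgtp1 and Tgtp2 (both forms of Irgb6) and Ifi47 (Irgd). In infected mouse cells GKS proteins load onto the vacuole around a parasite such as Toxoplasma and break its membrane. The IRGM branch, with a methionine in that place, comprises Irgm1, Irgm2 and Igtp (Irgm3), which sit on the cell's own membranes and hold GKS proteins in their inactive state there. The LC3 conjugation machinery of autophagy is needed for GKS proteins to find the right membrane. Interferon receptors switch the genes on through transcription factors that bind GAS and ISRE elements in their promoters, interferon regulatory factors among them.

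Expression was given in FPKM, a unit that scales fragments by transcript length and by the library's size, so levels of different genes can be set side by side per length. FPKM sums per library lay between 320720 and 340875, and absolute depth is unknown. The tissue label was checked against marker genes. Summed podocyte markers were 5670.2 to 7413 FPKM in G799R libraries and 3371 to 4051 FPKM in wild-type libraries, and 18 of 18 podocyte markers passed the test as higher in G799R. Tubule RNA was present too. Summed proximal tubule markers were 872 to 2403 FPKM in G799R libraries and 6633 to 12732 FPKM in wild-type libraries, above the podocyte sum in every wild-type library. In such bulk samples fewer cells of a type and less RNA per cell cannot be told apart. Tests were made with limma-trend on log2(FPKM + 1), with a threshold of 0.05 on the adjusted p, for the 13117 genes averaging 0.5 FPKM or more. Of these genes 59.8% were called in either direction, 40.5% as higher and 19.3% as lower in G799R. The median difference over all tested genes was 0.17 on the log2 scale, G799R minus wild type.

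All members but Iigp1 lie on chromosome 11. Positions are from GENCODE M21 on build GRCm38, since no source used here names the authors' build. One chromosome 11 group spans 235.0 kb and holds Irgm1 (chr11:48861968-48871683, minus strand), Tgtp1 (chr11:48985327-48994172, minus), Tgtp2 (chr11:49057194-49064206, minus) and Ifi47 (chr11:49076587-49096974, plus). The other spans 23.2 kb and holds Igtp (chr11:58199556-58207591, plus) and Irgm2 (chr11:58199618-58222782, plus), whose annotated gene bodies overlap on the same strand. Tgtp1, Tgtp2 and Ifi47 also overlap the annotated gene body of Olfr56 on the plus strand, and no source used here says whether counting used strand.

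Promoter windows of the 6 chromosome 11 genes were read from RefSeq on GRCm38.p6, from 250 bases before to 50 bases after each annotated start, and searched on both strands for the ISRE core (GAAA, any 2 bases, GAAA) and the GAS motif TTCNNNGAA. The 46-base stretches that hold the matches are shown because 4 of these genes carry the same arrangement. A link between the motifs and the levels by library was not tested. Capitals mark motif matches, read 5′ to 3′ on the gene's strand, at chr11:58199496-58199541 for Igtp, chr11:58214887-58214932 for Irgm2, chr11:48992304-48992349 for Tgtp1, chr11:49064263-49064308 for Tgtp2 and chr11:48871425-48871470 for Irgm1.
Igtp: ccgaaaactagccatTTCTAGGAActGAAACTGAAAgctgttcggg
Irgm2: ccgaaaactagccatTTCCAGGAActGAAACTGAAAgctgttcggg
Tgtp1: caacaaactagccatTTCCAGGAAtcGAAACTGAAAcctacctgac
Tgtp2: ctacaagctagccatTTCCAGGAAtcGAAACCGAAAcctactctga
Irgm1: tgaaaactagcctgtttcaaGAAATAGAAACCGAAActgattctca

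In Igtp, Irgm2, Tgtp1 and Tgtp2 a GAS match stood directly before an ISRE core match. Irgm1 held 2 overlapping ISRE core matches and no GAS match, and the Ifi47 window held neither. Among 32851 mouse promoter windows of this length, 3.44% held the ISRE core, 8.3% held the GAS motif and 0.454% held both. A GAS match at most 10 bases before an ISRE core, counted on the gene's strand alone and not on the opposite strand, was found in 9 windows, or 0.0274%. Those windows belonged to 8 genes, which were Igtp, Irgm2, Tgtp1, Tgtp2, the related gene Gm12185, Bst2, Cxcl14 and Gm26512. This spacing was chosen after the promoters had been read. The Igtp and Irgm2 stretches were identical at 45 of 46 bases and the Tgtp1 and Tgtp2 stretches at 38, whereas either of the first pair matched either of the second at 33 or 34. The Irgm1 stretch matched the others at 24 to 29. A motif match is a description of the letters and does not show binding.

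**Figure D1:**
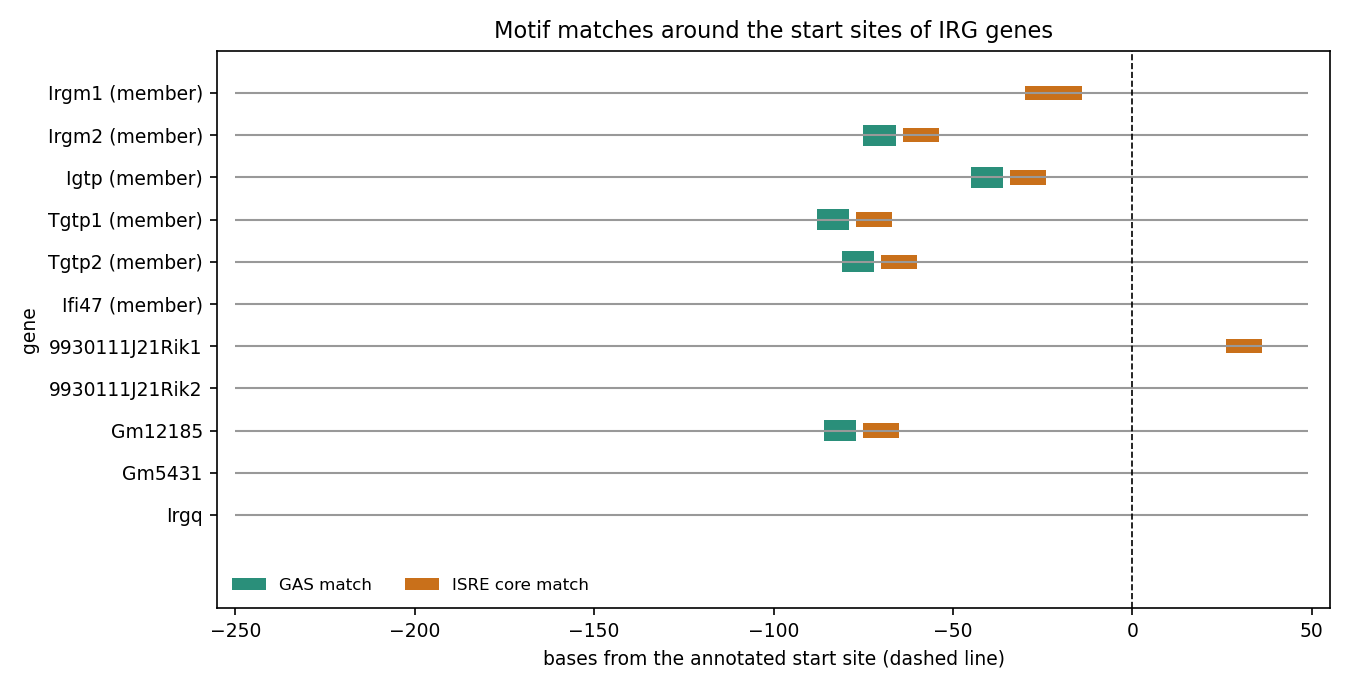
Matches to the GAS motif and the ISRE core (colours) along the promoter windows of IRG genes outside chromosome 18. Distance from the annotated start in bases is on the horizontal axis, with 1 line per gene. In Igtp, Irgm2, Tgtp1, Tgtp2 and Gm12185 a GAS match lies directly before an ISRE core match, and Ifi47 has neither.

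All 7 genes were higher in G799R glomeruli, and the lowest G799R library of each lay above its highest wild-type library. Among all tested genes 26.1% showed that separation upward and 15.7% downward. All 7 were also among the 40.5% called higher. Mean FPKM was 6.11-fold to 46.3-fold higher in G799R. The G799R libraries differed widely among themselves, by 4.59-fold to 15.9-fold from lowest to highest, where the wild-type libraries differed by 1.5-fold to 2.74-fold. By size of the log2 difference the members ranked between 2 and 58 among the 13117 tested genes.

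Of the IRGM regulators, Irgm1 was the most abundant. It had 45.4, 101, 193, 154 and 42.1 FPKM in G799R libraries 1 to 5, against 16.4, 13.4, 16.2, 18.4 and 23.4 FPKM in wild-type libraries 1 to 5. G799R libraries 2, 3 and 4 were high, and libraries 1 and 5 stood just above the wild-type range, with the lower of them 1.8 times the highest wild-type value. The mean was 107 ± 66.5 FPKM in G799R and 17.6 ± 3.70 FPKM in wild type (SD, n = 5 each), a log2 difference of 2.31 ± 0.39 (SE).

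Irgm2, which in mouse cells is found mainly at the Golgi, had 21.7, 67.9, 125, 82.7 and 33.7 FPKM in G799R libraries, against 6.57, 5.62, 6.44, 6.64 and 8.42 FPKM in wild-type libraries. The wild-type values were tight, and each G799R value was at least 2.58 times the highest of them. Means were 66.3 ± 41.3 FPKM in G799R and 6.74 ± 1.02 FPKM in wild type, and the log2 difference was 2.88 ± 0.38.

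Igtp, a protein of the endoplasmic reticulum and lipid droplets, had 14.6, 47.7, 106, 66.5 and 22.1 FPKM in G799R libraries, against 5.50, 4.76, 4.81, 6.03 and 8.02 FPKM in wild-type libraries. Its G799R libraries followed the order of Irgm2, with library 3 highest and library 1 lowest. Means were 51.4 ± 36.9 FPKM in G799R and 5.83 ± 1.33 FPKM in wild type, with a log2 difference of 2.63 ± 0.44. Of the 75-base windows of the Igtp transcript, 8.37% were shared with another gene, so the split of fragments between Igtp and Irgm2 was uncertain over a small part of it.

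Of the GKS genes, Iigp1, Tgtp1 and Tgtp2 had larger log2 differences than any IRGM gene, and Ifi47 was level with Irgm2. Iigp1 (chr18:60376027-60392634, plus strand), an effector that loads onto parasite vacuoles, had 43.1, 139, 206, 199 and 40.5 FPKM in G799R libraries, against 13.9, 5.81, 7.33, 6.86 and 13.6 FPKM in wild-type libraries. Wild-type libraries 1 and 5 were the higher ones, and still lay below every G799R library. The mean was 125 ± 80.7 FPKM in G799R and 9.51 ± 3.93 FPKM in wild type, and the log2 difference was 3.35 ± 0.48.

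Tgtp1 had 8.77, 72.8, 139.7, 70.2 and 40.5 FPKM in G799R libraries, against 1.31, 1.37, 1.06, 1.08 and 2.34 FPKM in wild-type libraries. It had the lowest wild-type mean of the 7 genes and the largest fold, 46.3, with a log2 difference of 4.37 ± 0.56. Means were 66.4 ± 48.5 FPKM in G799R and 1.43 ± 0.527 FPKM in wild type.

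Its near copy Tgtp2 had 31.5, 178, 265, 217 and 62.3 FPKM in G799R libraries, against 6.84, 2.80, 3.08, 6.69 and 7.67 FPKM in wild-type libraries. This was the highest mean of the family in G799R, 151 ± 100.2 FPKM, against 5.42 ± 2.29 FPKM in wild type. The fold was 27.8 and the log2 difference 4.27 ± 0.54.

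The Tgtp1 and Tgtp2 transcripts were identical at 99.8% of 2811 aligned bases, and 87.7% of the 75-base windows of Tgtp1 and 85.2% of those of Tgtp2 occurred in another gene. The split of fragments between them is therefore uncertain. Their sum does not depend on the split between them. It was 40.3, 251, 404, 287 and 103 FPKM in G799R libraries, against 8.16, 4.16, 4.14, 7.77 and 10 FPKM in wild-type libraries, a 31.7-fold difference of means.

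Ifi47 had 17.1, 56.5, 96.6, 87.7 and 18.6 FPKM in G799R libraries, against 6.31, 3.99, 4.73, 4.25 and 6.26 FPKM in wild-type libraries. G799R libraries 1 and 5 were again nearest to wild type. Means were 55.3 ± 37.3 FPKM in G799R and 5.11 ± 1.11 FPKM in wild type, and the log2 difference was 2.89 ± 0.45.

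**Figure D2:**
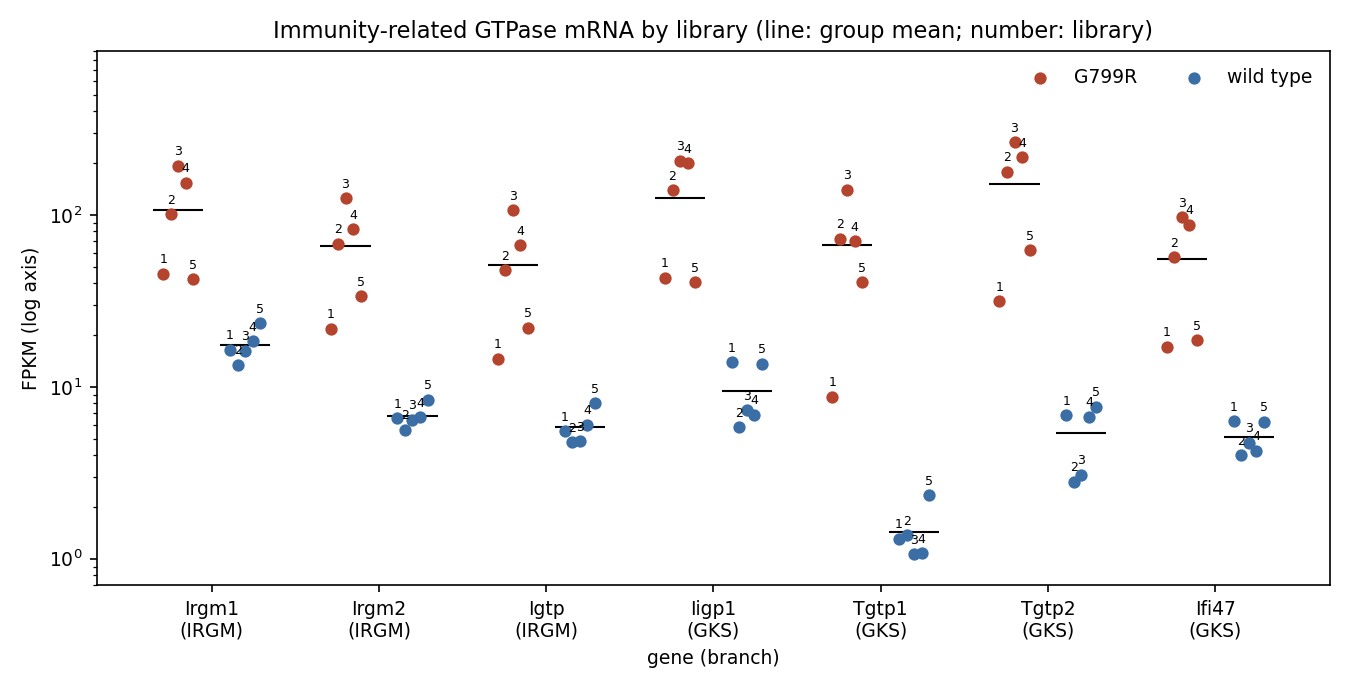
FPKM on a log axis for each of the 7 genes, with 1 point per library, its library number above it and a line at the group mean. Every G799R point lies above every wild-type point of the same gene, and G799R library 3 is the highest for all 7 genes.

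The members shared an order of libraries. G799R library 3 was the highest for all 7 genes and library 4 came next for 6 of them, the exception being Tgtp1, where library 2 did. Library 1 was the lowest for 5 genes and library 5 for Irgm1 and Iigp1. Summed over the 7 genes, the level was 182, 663, 1131, 877 and 259.8 FPKM in G799R libraries, against 56.9, 37.8, 43.7, 49.9 and 69.7 FPKM in wild-type libraries. The 7 genes took 0.0554% to 0.335% of all FPKM in G799R libraries and 0.0118% to 0.0215% in wild-type libraries.

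The order of levels differed between the groups. In G799R, means ran downward through Tgtp2, Iigp1, Irgm1, Tgtp1, Irgm2, Ifi47 and Igtp, and every gap between neighbours was smaller than the SD of either. In wild type, Irgm1 came first, 8.05 FPKM above Iigp1, which is more than the SD of either gene. Iigp1, Irgm2, Igtp, Tgtp2 and Ifi47 followed with gaps of 0.307 to 2.77 FPKM, each within the SD of at least 1 neighbour. Tgtp1 came last, 3.68 FPKM below Ifi47, again more than either SD. The genes were measured in the same libraries and shared much of their scatter, so these SDs do not judge the order within a library. In G799R, Irgm1 was above Tgtp1 in every library, and Tgtp2 was above Iigp1 in all but library 1. Igtp was below Irgm2 in every library of both groups.

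Within each library the balance between the chosen genes of each branch differed as well. Summed IRGM genes had 81.7, 217, 425, 303 and 97.9 FPKM in G799R libraries, against 28.5, 23.8, 27.5, 31.1 and 39.8 FPKM in wild-type libraries, a 7.47-fold difference. Summed GKS genes had 100.4, 447, 707, 573 and 162 FPKM in G799R libraries, against 28.4, 14.0, 16.2, 18.9 and 29.9 FPKM in wild-type libraries, an 18.5-fold difference. The IRGM sum divided by the GKS sum was 0.814, 0.485, 0.601, 0.529 and 0.605 in G799R libraries, against 1.0, 1.71, 1.69, 1.64 and 1.33 in wild-type libraries. For these 7 genes the groups did not overlap, and a ratio within a library is the same under any scaling of that library. The ratio depends on which genes were chosen, and a ratio that includes the other relatives was not computed. Single genes of the branches could be alike, as Ifi47 rose 10.8-fold and Irgm2 9.83-fold. Of the FPKM of the 7 genes, the IRGM share was 37.5% ± 4.63 in G799R and 59.1% ± 5.59 in wild type. These are means and SDs with n = 5 each. The share is not that of the whole family, since the relatives described below are left out. Of those, 9930111J21Rik2 alone had 72.8 FPKM in G799R and 31.2 FPKM in wild type.

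Single pairs of genes behaved differently from each other. Iigp1 divided by Irgm1 was 0.948 to 1.37 in G799R libraries and 0.373 to 0.849 in wild-type libraries, with no overlap. Igtp divided by Irgm2, neighbours with near-identical promoter stretches, was 0.657 to 0.846 in G799R libraries and 0.747 to 0.953 in wild-type libraries, and those ranges overlapped. Tgtp1 divided by Tgtp2 was 0.279 to 0.651 in G799R libraries and 0.161 to 0.488 in wild-type libraries, also overlapping, with the uncertain split named above.

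**Figure D3:**
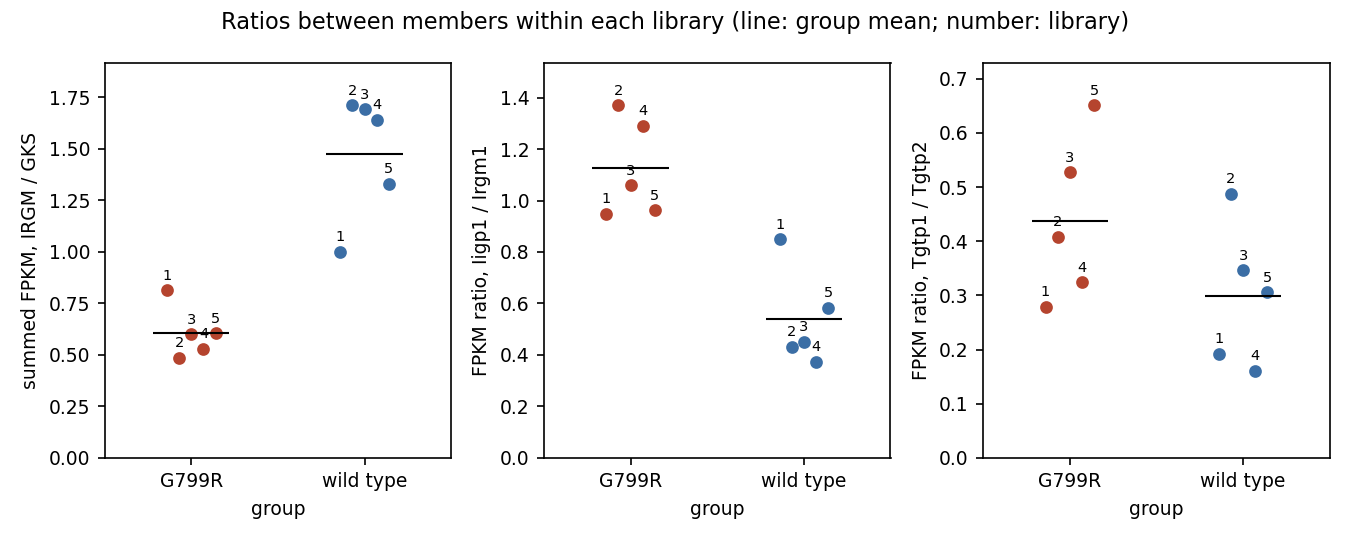
Ratios within each library for the summed IRGM over the summed GKS genes, Iigp1 over Irgm1 and Tgtp1 over Tgtp2, each from FPKM and with no unit, with 1 numbered point per library and a line at the group mean. The branch ratio is 0.485 to 0.814 in G799R and 1.0 to 1.71 in wild type, while the Tgtp1 to Tgtp2 ratios overlap.

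Further genes of the family were listed by name, of which 8 were in the table and 7 were tested. Of these, 6 rose in G799R and none fell, with a median log2 difference of 1.33. Gm4951, a relative that lies near Iigp1, rose to 12.1 ± 8.96 FPKM in G799R, against 1.2 ± 0.108 FPKM in wild type (log2 difference 2.24 ± 0.44, adjusted p = 0.0013). F830016B08Rik, another neighbour of Iigp1, rose 10.5-fold (1.70 ± 0.39, adjusted p = 0.0034), though its lowest G799R library, 0.606 FPKM, lay within the wild-type range.

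The tandem genes 9930111J21Rik1 and 9930111J21Rik2 lie in the Tgtp cluster. They rose 2.70-fold (adjusted p = 0.00011) and 2.34-fold (adjusted p = 0.00021), and 9930111J21Rik2 had 72.8 ± 16.8 FPKM in G799R and 31.2 ± 8.34 FPKM in wild type. Gm5431 rose 10.1-fold (adjusted p = 0.010) and Gm12185 rose 2.97-fold (adjusted p = 0.0060), both with overlapping groups. The Gm12185 call was lost when libraries were scaled to glomerular markers (log2 difference 0.37, adjusted p = 0.14), and this gene overlaps Tgtp1 and shares sequence with it.

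Irgq, a distant relative of the family, did not pass the test, with 6.50 ± 0.686 FPKM in G799R and 5.81 ± 0.443 FPKM in wild type (log2 difference 0.14 ± 0.09, adjusted p = 0.19). Scaled to glomerular markers it was called lower (-0.50, adjusted p = 0.0038), near the median of -0.47 for all tested genes with that scaling. Irgc1, a gene of the testis, was at most 0.230 FPKM in G799R libraries and 0.246 FPKM in wild-type libraries and was not tested.

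Genes flanking the clusters were read for position alone and outside the rule for named genes. Beside the Irgm1 to Ifi47 group, Trim7 had a mean of 4.15 FPKM in G799R and 20.2 FPKM in wild type, and Olfr1396 had 6.97 FPKM in G799R and 3.72 FPKM in wild type. Beside Igtp and Irgm2, Gemin5 had 4.93 FPKM in G799R and 4.62 FPKM in wild type, and Mrpl22 had 9.15 FPKM in G799R and 11.6 FPKM in wild type. Beyond Iigp1, Dctn4 had 21.8 FPKM in G799R and 19.0 FPKM in wild type. On its other side Gm4841 had 0.751, 3.92, 5.58, 5.46 and 0.901 FPKM in G799R libraries, against 0.194, 0.057, 0.109, 0.25 and 0.036 FPKM in wild-type libraries. Gm4841 thus showed the members' pattern of high libraries 2, 3 and 4, and the other neighbours named in this paragraph differed by less than any member. Whether Gm4841 itself belongs to the family was not looked at, and an effect of position was not tested.

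The ligands that induce the family were at or near zero. Ifng, which encodes interferon gamma, was listed at 0 in 9 of 10 libraries and at 0.155 FPKM in G799R library 5. Of 11 interferon ligand genes listed, 9 were at 0 in every library, and Ifnb1 was above 0 in G799R library 4 alone, at 0.091 FPKM. None of them could be tested.

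Most receptor and signalling genes had clear values, but Socs1 and the receptor gene Ifnlr1 were low. Socs1 had 0.298 to 1.91 FPKM in G799R libraries and 0.096 to 0.332 FPKM in wild-type libraries, and Ifnlr1 was not tested. Of 11 tested genes of interferon gamma signalling, 10 rose in G799R and none fell, with a median log2 difference of 0.56. Ifngr1, the ligand-binding receptor chain, rose to 71.4 ± 22.4 FPKM in G799R, against 23.7 ± 3.07 FPKM in wild type (1.49 ± 0.21, adjusted p = 0.00015). Ifngr2, the second chain, and the kinase Jak1 each rose 1.43-fold (adjusted p = 0.0037 and 7.9e-05), but scaled to glomerular markers their differences turned to -0.15 and -0.13 and were not called. With that scaling 4 genes of the list were higher and 2 lower, where the median of all tested genes was -0.47.

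Transcription factors of the pathway rose too. Irf1, an activator that binds the ISRE core, rose 3.29-fold, to 70.7 ± 20.5 FPKM in G799R against 21.5 ± 2.34 FPKM in wild type (1.63 ± 0.17, adjusted p = 2.1e-05). Irf9 and Stat2, which act together in an ISRE-binding complex, rose 3.81-fold (adjusted p = 0.00012) and 4.98-fold (adjusted p = 0.00031).

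In the list of interferon ligands and type I receptor genes, 5 of 5 tested genes rose, with a median log2 difference of 0.44. The receptor chains Ifnar1 (0.44, adjusted p = 0.0003) and Ifnar2 (0.73, adjusted p = 3.5e-05) and the shared chain Il10rb (0.39, adjusted p = 0.002) rose as deposited. Scaled to glomerular markers, Ifnar1 was at -0.20 and Ifnar2 at 0.09, neither called, and Il10rb was called lower at -0.25 (adjusted p = 0.027). The median of all tested genes was -0.47 with that scaling, below all of these.

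The LC3 conjugation and vacuole tagging genes with which the GTPases work showed no common direction. Of 15 tested, 6 rose, a share near the 40.5% of all tested genes, and 1 fell, with a median log2 difference of 0.14, close to the 0.17 of all genes. Gabarapl1, an LC3 relative, fell to 94.0 ± 12.2 FPKM in G799R, against 147 ± 16.1 FPKM in wild type (-0.65 ± 0.10, adjusted p = 0.00031). Trim21, an antibody-binding ubiquitin ligase that is itself interferon-inducible, rose 2.54-fold (adjusted p = 0.0013). The adaptor Sqstm1 rose by 0.45 (adjusted p = 0.00088) and Atg16l1, which positions the conjugation complex, by 0.26 (adjusted p = 0.0074), but with glomerular marker scaling they were at -0.19 and -0.38. With that scaling 1 gene of the list was higher and 13 were lower. The list median was then -0.5, near the -0.47 of all tested genes, of whose calls only 4.24% were higher.

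Of 10 guanylate-binding proteins, larger interferon-induced GTPases that also target vacuoles, 9 rose and none fell, with a median log2 difference of 2.35. Gbp2b rose to 39.9 ± 23.4 FPKM in G799R, against 0.804 ± 1.69 FPKM in wild type (4.65 ± 0.49, adjusted p = 1.9e-05), where 1 wild-type library stood at 3.82 FPKM. Gbp3 rose 15.6-fold (adjusted p = 0.00031), Gbp4 10.1-fold (adjusted p = 0.00027) and Gbp2 6.80-fold (adjusted p = 0.00012). Gbp10 was not called (0.87, adjusted p = 0.07), but all 10 were called with a pseudocount of 0.1 or 0.5 and without G799R library 1 or 5.

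Genes induced mainly by interferon gamma and those induced mainly by type I interferon were listed separately. Of 21 tested gamma-leaning genes, 18 rose and none fell, with a median log2 difference of 1.19. With glomerular marker scaling 9 of them were higher and 1 was lower, with a median of 0.55, beside -0.47 for all tested genes. Serpina3g, a protease inhibitor, rose 6.76-fold (adjusted p = 5e-06), the immunoproteasome subunits Psmb8 6.14-fold (adjusted p = 1.1e-05) and Psmb9 7.19-fold (adjusted p = 2.8e-05), and the peptide transporter subunit Tap1 8.24-fold (adjusted p = 2.3e-05). All 27 tested type I-leaning genes rose, with a median of 2.80, beside 2.89 for the 7 GTPases, and 24 were higher with glomerular marker scaling, with a median of 2.15. Without G799R libraries 3 and 4 the medians were 1.82 for type I-leaning genes, 2.30 for the GTPases and 1.43 for gamma-leaning genes. Xaf1 rose 10.9-fold (adjusted p = 0.00014), Rtp4 9.13-fold (adjusted p = 0.00021), Ifi27l2a 40.7-fold (adjusted p = 0.00031) and Oas1a, a sensor of double-stranded RNA, 13-fold (adjusted p = 0.00054).

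The lists differed in how G799R libraries ranked. The mean log2(FPKM + 1) of the 7 GTPases was 4.56, 6.44, 7.26, 6.83 and 5.16 in G799R libraries, against 2.96, 2.48, 2.60, 2.77 and 3.23 in wild-type libraries. For type I-leaning genes it was 4.4, 4.44, 6.49, 5.95 and 3.12 in G799R libraries, against 2.39, 1.86, 2.14, 2.08 and 2.84 in wild-type libraries. Library 3 led both lists, but library 2 stood near library 1 in the type I-leaning list and near library 4 among the GTPases. Library 5 was lowest for type I-leaning genes and above library 1 for the GTPases. Irf7, a type I-leaning amplifier of interferon production, showed the same contrast, with 73.4, 89.6, 768, 384 and 20.1 FPKM in G799R libraries, against 6.78, 3.83, 5.01, 4.29 and 10.2 FPKM in wild-type libraries.

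The mean of gamma-leaning genes was flatter, at 3.84, 4.32, 4.17, 3.87 and 3.84 in G799R libraries, against 3.11, 2.47, 2.71, 2.34 and 2.67 in wild-type libraries. Genes within that list differed. Tap1, at 21.6, 49.2, 88.7, 51.3 and 32.0 FPKM in G799R libraries, and Nlrc5 ranked those libraries as the summed GTPases did. Serpina3g did not, at 67.7, 120.4, 67.9, 41.0 and 83.3 FPKM. The list also held 6 genes of MHC class II presentation and their transactivator Ciita, which the signalling list holds too. These 7 genes were picked after their values were seen, and as a group they ranked the other way from the GTPases. Their mean was 5.51, 5.36, 4.41, 4.61 and 4.90 in G799R libraries, against 5.0, 3.7, 4.29, 3.34 and 3.89 in wild-type libraries. In that mean, libraries 3 and 4, the highest for the GTPases, were the lowest G799R libraries, and the groups overlapped. Single genes could differ, as H2-Eb1 was lower in library 5 (43.1 FPKM) than in library 4 (45.5 FPKM). H2-DMb1 did not overlap between the groups.

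**Figure D4:**
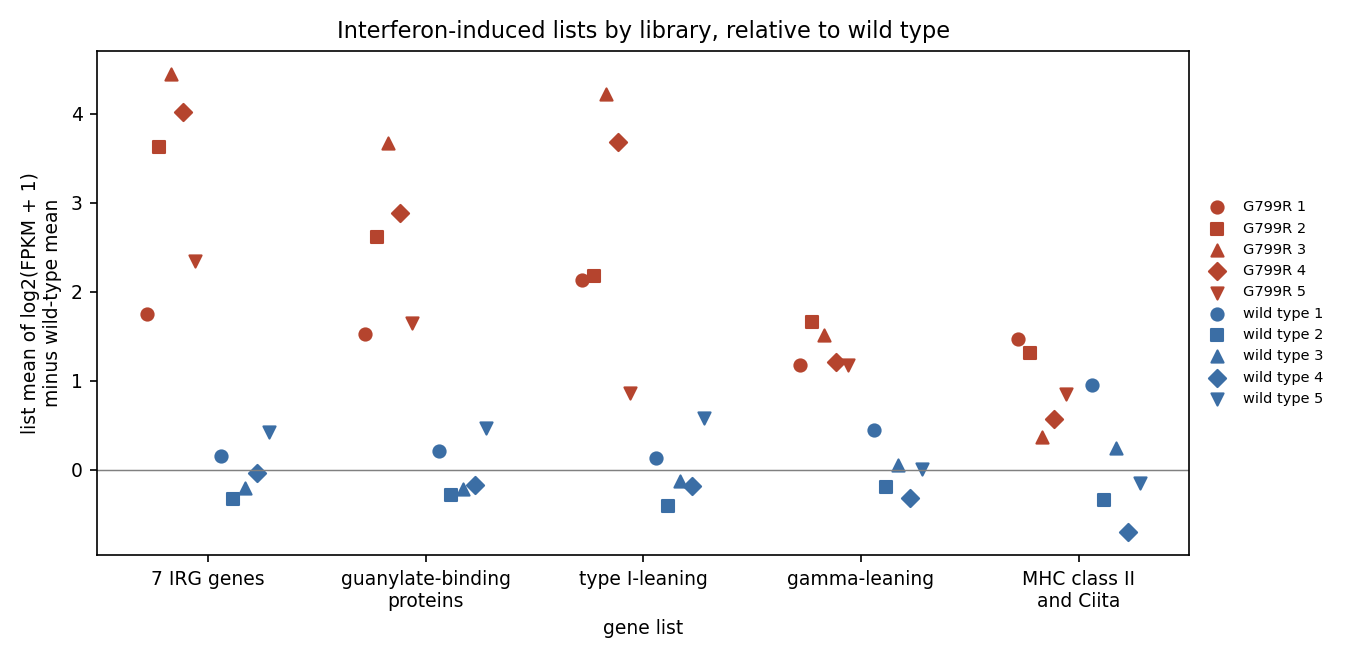
Mean log2(FPKM + 1) of each gene list by library, less its wild-type mean, with colour for group and shape for library number. G799R libraries 3 and 4 are the highest in the IRG, guanylate-binding protein and type I-leaning lists and the lowest of their group for MHC class II with Ciita.

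Among 12286 other genes averaging 1 FPKM or more, profiles over the 10 libraries were set against the mean profile of the 7 GTPases, after each was centred on its wild-type mean. Among the nearest were Gbp6, with a root mean square distance of 0.30 on the log2 scale, Gbp4 at 0.45, Xaf1 at 0.46 and Gbp3 at 0.47. The members themselves lay at 0.27 for Iigp1, 0.30 for Irgm2 and Ifi47, 0.44 for Igtp, 0.69 for Irgm1, 0.77 for Tgtp2 and 0.89 for Tgtp1. Gbp6 had 5.13, 29.3, 80, 39.8 and 8.55 FPKM in G799R libraries, against 2.12, 1.15, 1.22, 1.97 and 2.55 FPKM in wild-type libraries.

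Cell types that could bring interferon or immune RNA were read from their markers. Summed T and NK cell markers were 7.75 to 24.2 FPKM in G799R libraries and 5.84 to 10.5 FPKM in wild-type libraries. Of 8 tested, 1 rose, the granule protease Gzmb, with 1.51 ± 0.697 FPKM in G799R and 0.174 ± 0.107 FPKM in wild type (adjusted p = 0.00079). Its call was lost with glomerular marker scaling (log2 difference 0.41, adjusted p = 0.11). The highest sum was in G799R library 5, the library with the single Ifng value above 0, where the GTPases were low for G799R. The other T and NK markers tested, such as Lck with 1.3 FPKM in G799R and 0.868 FPKM in wild type (adjusted p = 0.08), did not pass. None of the 18 markers was at 0 in every library.

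Of 17 tested macrophage and myeloid markers, 11 rose and none fell, and their sum was 276, 321, 227, 178 and 267 FPKM in G799R libraries, against 161, 102, 141, 68.4 and 114 FPKM in wild-type libraries. Ctss, a lysosomal protease of antigen-presenting cells, rose 3.29-fold (adjusted p = 0.00022) and Fcer1g, an Fc receptor subunit, 5.64-fold (adjusted p = 0.00063). G799R libraries 3 and 4, highest for the GTPases, had the lowest myeloid sums of their group. Summed B cell markers were 3.3 to 10 FPKM in G799R libraries and 7.39 to 11.9 FPKM in wild-type libraries. The part of these cells in the GTPase difference was not tested.

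Endothelial markers summed to 2791 to 3186 FPKM in G799R libraries and 1370 to 2614 FPKM in wild-type libraries, with 13 of 16 higher and none lower. Mesangial and smooth muscle markers summed to 1369 to 1915 FPKM in G799R libraries and 590.5 to 1002 FPKM in wild-type libraries, with 9 of 14 higher and none lower. All 18 proximal tubule markers and 17 of 18 distal tubule and collecting duct markers fell in G799R, with a mean over both lists of 3.57 to 4.53 on the log2 scale in G799R libraries and 6.04 to 6.74 in wild-type libraries. The groups thus did not overlap in tubule RNA either, and genotype and tubule content cannot be told apart.

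When every library was scaled so that podocyte, endothelial and mesangial markers had equal means, the differences of the 7 genes were 1.67 for Irgm1, 1.99 for Igtp, 2.24 for Irgm2, 2.25 for Ifi47, 2.71 for Iigp1, 3.62 for Tgtp2 and 3.73 for Tgtp1. All 7 stayed past the threshold there, where 3.06% of tested genes were called higher and the median of all genes was -0.47. Of all calls, 67.7% were higher as deposited, 47.7% after median-of-ratios scaling and 4.24% after glomerular marker scaling. Without G799R libraries 3 and 4, left out after the data had been seen, the differences were 1.69 for Irgm1, 1.95 for Igtp, 2.18 for Ifi47, 2.30 for Irgm2, 2.68 for Iigp1, 3.57 for Tgtp2 and 3.70 for Tgtp1. Tgtp1 and Tgtp2 had the largest differences and Irgm1 the smallest as deposited, after the median-of-ratios and glomerular marker scalings and without those libraries, while Ifi47 and Irgm2 exchanged places when the libraries were left out.

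**Figure D5:**
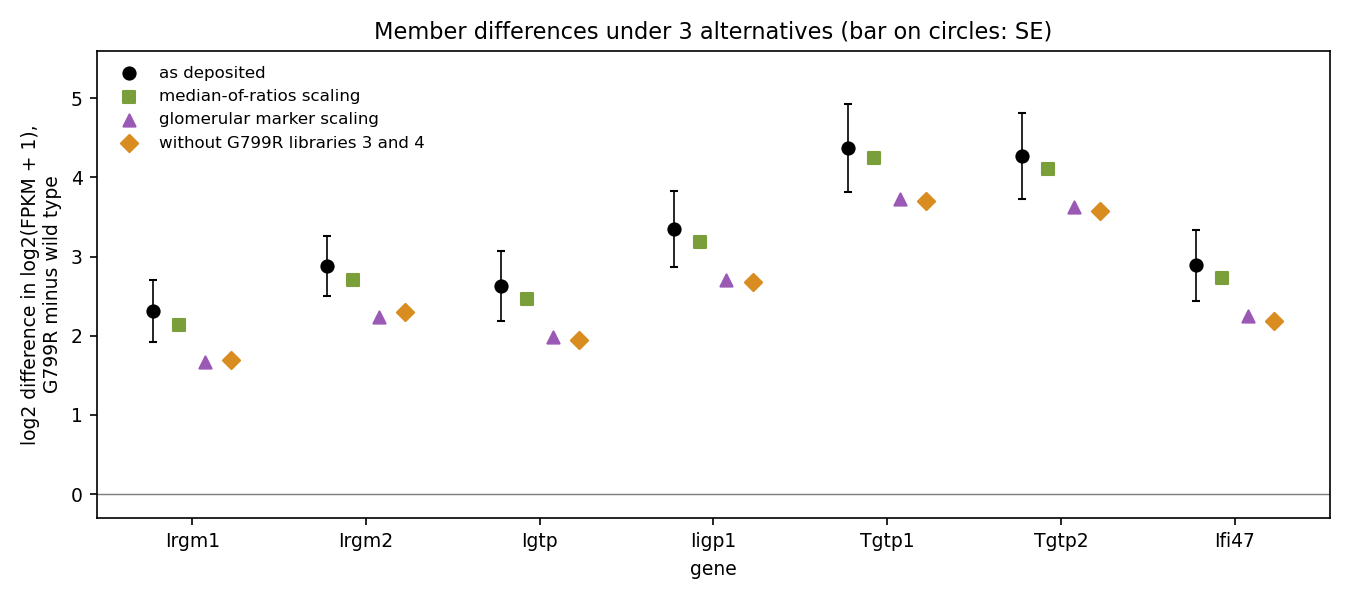
Log2 difference of each gene, G799R minus wild type on log2(FPKM + 1), as deposited with its SE, after 2 other scalings and without G799R libraries 3 and 4. Glomerular marker scaling lowers every value, to 1.67 for Irgm1 and 3.73 for Tgtp1, and all remain above 0.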

How the data were processed

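The authors deposited 1 table of FPKM values for 10 libraries. TRIzol extraction and a NEBNext Ultra kit were used for enriched mRNA, per the labels' protocols. RSEM, StringTie 1.3.1, HISAT2, Bowtie2 2.2.8 and fastp 0.18.0 appear in the submitters' processing notes, with no role or order stated. FPKM is relative, so a larger share of RNA from 1 cell type lowers the values of the others. The table held 0 columns of other samples. Symbols were found for 21963 identifiers and not for 90. Relative depth, from steps of low values, was about 0.86 to 1.19 times that of wild-type library 1, at which 71 to 124 of 1107 to 1288 low genes lay.

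All genes averaging 0.5 FPKM or more entered limma-trend (R 4.3.3, limma 3.58.1) on log2(FPKM + 1), two-sided, with Benjamini-Hochberg adjustment over all of them. Adding 1 shrinks the differences of genes with low values, and folds are ratios of mean FPKM. The procedure was tested on simulated data. Members, lists and tests were chosen with earlier results of these data known. The text names the 7 members, every listed relative, and from the other lists genes among the 4 with the smallest p, plus Ifng, Ifngr1, Ifngr2 and Irf1 by name, and genes among the 5 nearest profiles; other genes were named after their values were seen. One gene that the rule covers is not reported here. Motif searches and transcript comparisons used Biopython 1.88. Alternatives were other pseudocounts, filters, scalings, fits, a replicate block and leaving out libraries.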

Additional observations from a re-analysis of the deposited data

Results flagged for a closer look

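In wild type, the highest Tgtp1 library, library 5 at 2.34 FPKM, stood far from the other 4, which had 1.06 to 1.37 FPKM, by a gap test at the 95% level. Of 22 groups of values looked at in this way 1 was singled out, and chance alone singles out about 5% of such groups. Wild-type library 5 was also the highest wild-type library for Irgm1, Irgm2, Igtp and Tgtp2, without standing apart in that test, and it remained below every G799R library for all 7 genes.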

How the results depend on the processing

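Under every alternative run all 7 members were called higher, where 3.06% to 43.0% of tested genes were, and did not overlap between groups, where 1.32% to 34.9% of tested genes lay wholly above wild type; they were chosen for this difference. Their log2 differences ranged over these from 1.67 to 2.58 for Irgm1, 1.95 to 2.99 for Igtp, 2.24 to 3.21 for Irgm2, 2.18 to 3.21 for Ifi47, 2.68 to 3.67 for Iigp1, 3.57 to 4.73 for Tgtp2 and 3.70 to 5.03 for Tgtp1. Of 542 recomputed results, 523 stayed within the accepted range. For counts that range was a change of at most 1.5-fold. For member differences it was the same direction and a shift below the larger SD of the groups on the log2 scale. Median-of-ratios scaling gave 3058 genes higher, against 5308 as deposited, and moved the median of all genes to 0.02; in the LC3 list 2 were then higher and 3 lower. After quantile normalisation 2 LC3 genes were lower. Glomerular marker scaling gave 402 genes higher and 9081 lower, against 2537 lower as deposited. With it 1 other IRG gene was lower, 4 genes of interferon gamma signalling were higher and 2 lower, 9 gamma-leaning genes higher and 1 lower, 1 gene of the ligand and type I receptor list higher and 2 lower, and 1 LC3 gene higher and 13 lower. Cell type scores became -3.03 for tubule (-2.39 as deposited), 0.28 for macrophage and myeloid (0.92) and -0.41 for T and NK cells (0.23), which reversed; with a pseudocount of 0.1 the T and NK score was 0.56. Median-of-ratios and glomerular marker scaling multiply or shift every gene of a library alike, and quantile normalisation moves genes by rank. Same-numbered libraries did not deviate together (correlations -0.08 to 0.05, and 0 of 10 libraries closest to its own number), so no pairing by replicate number was seen. The submitters' column names run by other numbers, and a pairing by those was not checked. With the replicate number as a block, 4937 genes were higher and 2451 lower, and no member's call changed. Library totals are unknown, which limits statements on genes near 0 such as Ifng.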
